A study of Arabidopsis thaliana with 32 samples.

Results

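Sku6 is an Arabidopsis thaliana line carrying the sku6 allele of SPIRAL1 (SPR1), and its roots were compared here between spaceflight and the ground at 4 days of age. The comparison covers the 869 loci that the authors' deposited table of this contrast lists at a q-value of at most 0.05, of 4802 loci listed in any of the 12 deposited tables of the study. Every listed locus was taken, and flight over ground was computed from the 2 group values. A total of 425 loci were higher and 444 were lower in flight.

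The study crossed 2 genotypes (Sku6 and wild-type Col-0), 2 ages (4 and 8 days) and 2 places of growth, with 4 samples in each group and 32 in all. All seedlings germinated and grew in light on solid medium of 0.5x MS salts and Phytagel held upright. The flight plates stood in the Veggie plant growth unit (VPS) on the International Space Station. The ground plates stood in a second VPS unit in a chamber at Kennedy Space Center that replayed the station's temperature, CO2 and lighting with a delay of 48 h. Seedlings were fixed in RNAlater inside Kennedy Fixation Tubes, roots were dissected later, and 5 to 8 roots were pooled into each 4-day sample. No other treatment separated the groups, but place of growth, growth unit and calendar time changed together and cannot be told apart. Sku6 is a single line, and no complemented line was analysed here. In pooled whole roots, fewer cells of a type and less RNA per cell cannot be told apart.

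SPIRAL1 is a small plant-specific protein that binds cortical microtubules, the fibres under the plasma membrane that guide how cellulose is laid down in the wall. Without it, growing cells twist and roots skew to one side on an upright agar plate. Root tips on such plates also sense gravity, touch and light, and light reaching roots is known to drive a flavonol and photoprotection programme through the transcription factor HY5.

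SPR1 was close to absent in the Sku6 roots of both places. In the authors' deposited genotype tables, SPR1 was at 7.21 FPKM in Sku6 and 1262 FPKM in Col-0 on the ground, and at 8.13 and 1210.0 FPKM in flight. FPKM are fragments scaled to transcript length and library size, and each is the authors' single value for a group of 4 samples. SPR1 itself is not listed between flight and ground, so the flight comparison was made in roots that lacked most of this transcript on both sides. No value per sample was in hand, so no spread between replicates can be given, the depth is unknown and no test was added to the authors'. Each FPKM below is therefore a group value with no error of its own, and "higher", "lower", "rose" and "fell" are used for loci past the authors' q-value.

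Changes upward were larger and started from lower levels than changes downward. The 869 loci were 4.45% of about 19507 loci tested, the higher ones 2.18% and the lower ones 2.28%. The median log2 of flight over ground was 1.01 among the higher loci, or 2.01-fold, and -0.81 among the lower ones, or 1.76-fold. Changes of at least 2-fold were seen at 215 higher loci (1.1% of those tested) and 152 lower loci (0.779%). At 8-fold or more, 18 loci were higher and 7 were lower. Higher loci had a median of 15.5 FPKM on the ground and 31.9 in flight, and lower loci had 43.0 on the ground and 22.4 in flight. At 100 FPKM or more on the ground stood 55 of the higher and 126 of the lower loci. The ground value is the smaller one of each higher locus and the larger one of each lower locus, so this split is partly built in. By the larger value of each locus, the medians were 31.9 FPKM for the higher and 43.0 for the lower loci. Of the higher loci 100 were under 5 FPKM on the ground while 72 of the lower loci were under 5 FPKM in flight.

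**Figure D1:**
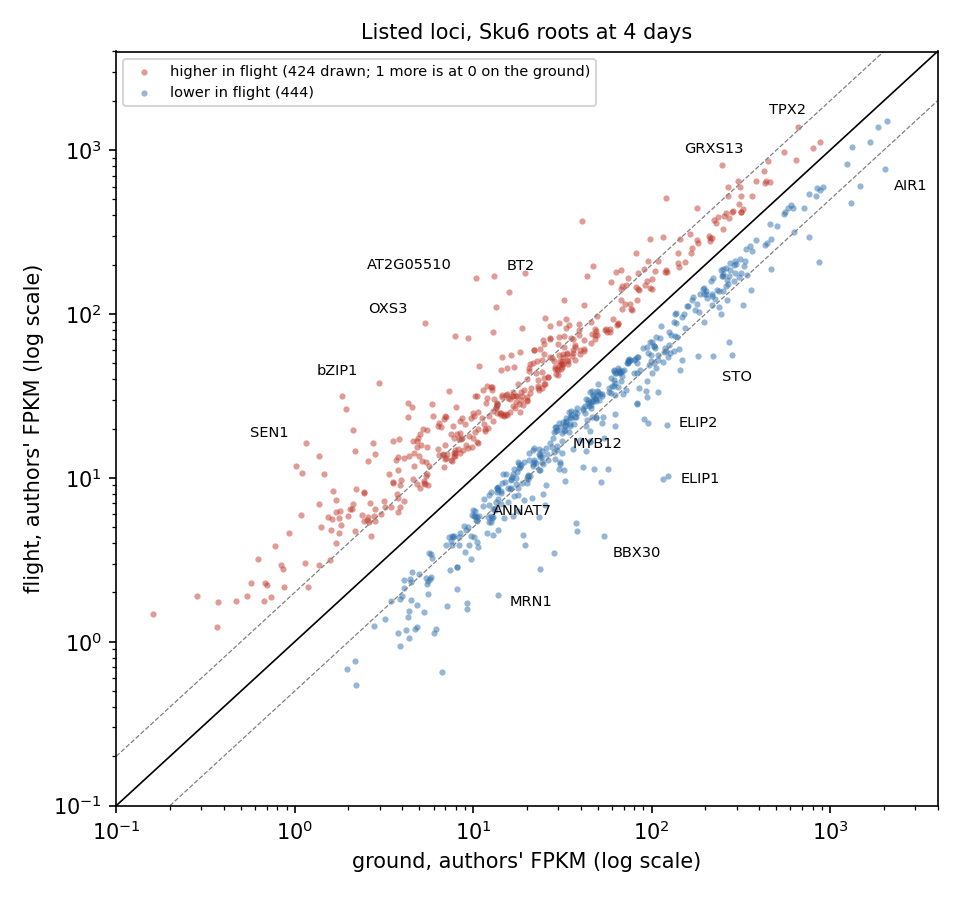
Group FPKM on the ground (x axis) and in flight (y axis) of the listed loci in Sku6 roots at 4 days, both on log scales, with each point 1 locus. The solid line marks equal values and the dashed lines a 2-fold difference. Red points above the line spread farthest at ground values of 1 to 20 FPKM, and the 8 loci over 1000 FPKM on the ground all lie below it. Choosing loci by a high ground value favours lower ones, so this split is partly built in.

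The 12 steepest rises had log2 values of 3.18 to 4.09. OXS3, a nuclear protein of oxidative stress tolerance, was at 5.34 FPKM on the ground and 88.1 in flight, and BT2, a BTB/TAZ scaffold protein that responds to sugar and nitrogen, was at 13.2 and 170.1 FPKM. AT5G61590, annotated as DEWAX, an ERF-type repressor of wax synthesis genes, went from 19.6 to 178 FPKM, and ATCTH, a tandem CCCH zinc finger protein, from 2.11 to 19.5. AT1G49570, annotated as a class III peroxidase, an enzyme class that acts in the cell wall, was at 1.36 and 13.5 FPKM. PEPC1, annotated as a pyridoxal phosphate phosphatase-related protein, was at 1.103 and 10.7 FPKM. With AT3G05727 left out, which is listed at 0 on the ground and was at 1.53 FPKM in flight, the largest ratio belonged to AT5G38940, a cupin-fold protein, at 1.85 and 31.4 FPKM, a log2 of 4.09. All of these except AT3G05727 had both values above 1 FPKM, and 6 of the 12 largest rises began under 2 FPKM.

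The 12 steepest falls had log2 values of -3.62 to -2.34. ELIP2, an early light-induced protein that protects plastids in strong light, fell from 121 FPKM on the ground to 21.0 in flight. RVE7, a MYB-type protein of the clock family listed as EPR1 in the reference, fell from 9.27 to 1.58 FPKM. AT5G06980, annotated as LNK4 and night light-inducible, fell from 6.19 to 1.201 FPKM. UGT84A2, which glucosylates sinapate, fell from 51.9 to 9.42 FPKM, and SWEET11, a sucrose exporter, from 6.02 to 1.14. ORG1, a protein that responds to the transcription factor OBP3, was at 57.1 FPKM on the ground and 11.3 in flight. BBX30 had the lowest ratio of the loci with a single gene, a log2 of -3.62.

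**Figure D2:**
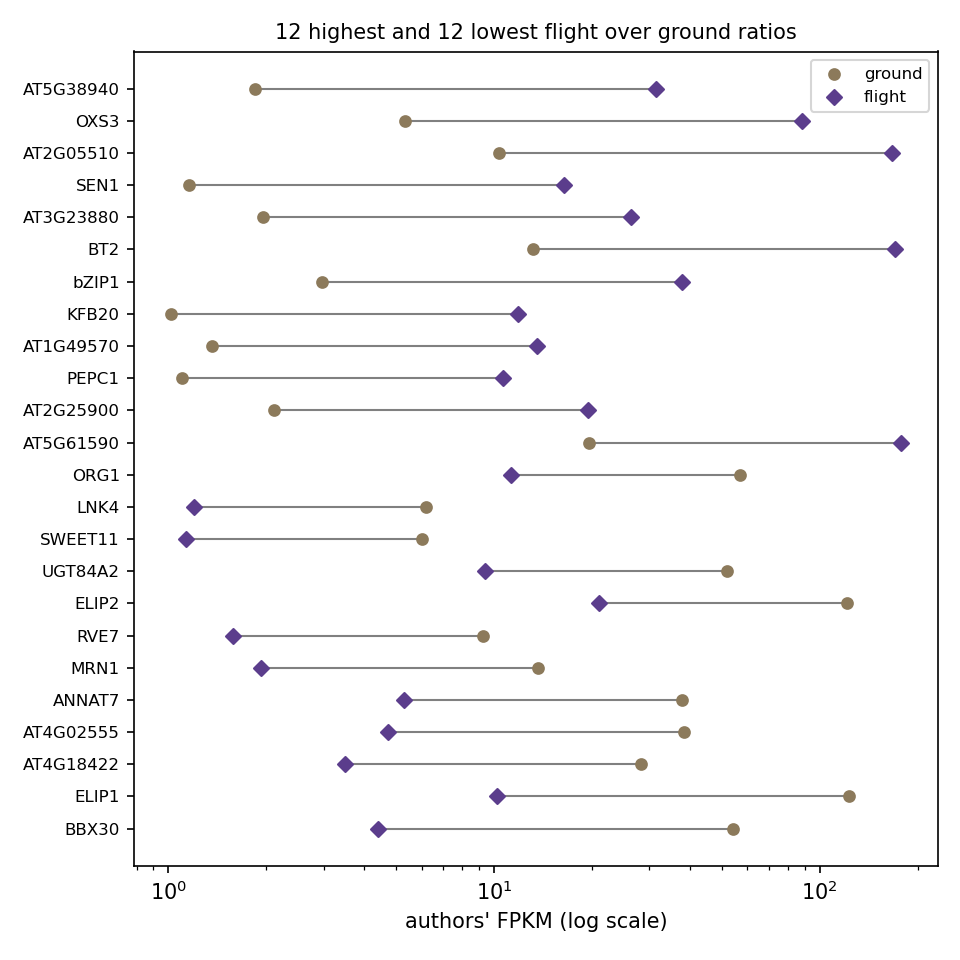
Group FPKM on the ground (circles) and in flight (diamonds), on a log x axis, for the genes at both ends of the flight to ground ratio, 12 at each, among single-gene loci reaching 5 FPKM in a group. Genes run from the lowest ratio at the bottom (BBX30) to the highest at the top (AT5G38940). The higher genes have log2 values of 3.18 to 4.09 and the lower ones of -3.62 to -2.34, and ELIP1 and ELIP2 are the only ones above 100 FPKM on the ground.

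Most of the 10 most abundant listed loci fell. AIR1, an auxin-induced lipid transfer-like protein of root cultures, was at 2040.3 FPKM on the ground and 771 in flight. A second listed locus of AIR1, less abundant and outside this group, was at 284 and 56.6 FPKM. The neighbour of AIR1, AT4G12545, of the same protein family, was at 1468 and 607 FPKM. The peroxidase AT3G32980 was at 1308 and 479 FPKM. These 3 fell by more than the other lower loci of this group, in which AT3G12965 (a non-coding RNA, 2096 to 1506 FPKM), AGP21 (an arabinogalactan protein of the cell surface, 1672 to 1119), GASA1 (a gibberellin-regulated peptide, 1248 to 826), GAPC2 (a glycolytic dehydrogenase, 1329 to 1044) and the ribosomal protein AT1G56045 (1853 to 1390.5) changed by less than 2-fold. TPX2 and the ribosomal protein AT1G04480 were the exceptions. TPX2, here the thioredoxin-dependent peroxidase and not the spindle protein of the same symbol, rose from 663 to 1386 FPKM, and AT1G04480 from 876 to 1129. TPX2 has close copies, so how the authors' counting split their reads is uncertain.

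Gene lists of root pathways were set beside the share of all tested loci, 2.18% higher and 2.28% lower. All lists and their members were chosen with earlier results of these data known. Their shares are therefore descriptions of chosen sets and no test of a pathway. The lists hold 1152 names, which gave 1087 genes of the reference annotation, with a gene on several lists counted in each. Counts of 0 hold for the matched genes only. A gene that is not listed may have been unchanged, too low to test or short of the q-value. In the root, low-energy signalling runs through the kinase SnRK1 and bZIP transcription factors that switch on genes for the breakdown of amino acids when sugar is short. Of 37 genes of the low energy and darkness list, 13 were higher (35.1%) and 0 lower, with a median log2 of 1.97. The transcription factor bZIP1 was at 2.96 and 37.9 FPKM, and BT1, a relative of BT2, at 9.38 and 71.9. KFB20 (AT1G80440), a kelch F-box protein that marks phenylalanine ammonia-lyase for degradation, was at 1.02 and 11.9 FPKM, and the related KFB01 at 20.11 and 39.9. Other members rose by smaller ratios from higher levels. DRM1 (DYL1), a dormancy-associated protein, rose from 43.4 to 170.5 FPKM, TPS10, a trehalose phosphate synthase-like protein, from 24.9 to 65.5, and AKINBETA1, a SnRK1 subunit, from 31.5 to 49.7. EXL4, a member of this list that is not listed here, was lower in Col-0 flight at 4 days.

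Genes that take apart proteins, fats and amino acids followed the same direction. This list and the lists of photorespiration, glucosinolates and phenylpropanoid entry were drawn up after values had been seen, so their counts are descriptions of a chosen set. Of 32 genes for the breakdown of stores and proteins, 7 were higher and 0 lower. ICL, the isocitrate lyase of the glyoxylate cycle that turns fat into sugar, was at 3.54 FPKM on the ground and 16.9 in flight, and SDP1, the lipase that opens oil bodies, at 3.77 and 6.15. ATG8E, an autophagosome coat protein, rose from 235 to 388 FPKM. Proline dehydrogenase ERD5 rose from 84.0 to 141 FPKM. The glutamate dehydrogenases GDH1 and GDH2 rose from 34.1 to 51.6 and from 169.5 to 252. ERD5 and GDH2 are also on the low energy list, so the counts of these lists overlap. LKR (AT4G33150), which degrades lysine, rose from 46.6 to 75.5 FPKM. ICL stood apart with a log2 of 2.25, while the other 6 lay between 0.57 and 0.75. Of the 22 genes of the seed storage list, 0 are listed.

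The bases before 3 higher genes are shown because they hold the letters GATAAG, which 22.5% of the 396 higher promoters held against 11.6% of the 413 lower ones and 12.3% of all 27438 protein-coding promoters. Each window is the 250 bases before the annotated gene start on the TAIR10.1 genome of RefSeq, given 5′ to 3′ on the gene's strand, with GATAAG and its reverse complement CTTATC in capitals. The window of BT1 is chr5:25335571-25335820 of the minus strand, AT5G38940 at chr5:15588373-15588622 of the plus strand and RBCS2B, a small subunit of Rubisco, at chr5:15382072-15382321 of the minus strand.
BT1: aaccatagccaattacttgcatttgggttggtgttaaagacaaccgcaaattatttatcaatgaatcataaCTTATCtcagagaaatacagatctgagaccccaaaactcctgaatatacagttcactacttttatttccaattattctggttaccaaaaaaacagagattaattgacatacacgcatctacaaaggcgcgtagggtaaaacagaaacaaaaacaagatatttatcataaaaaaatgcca
AT5G38940: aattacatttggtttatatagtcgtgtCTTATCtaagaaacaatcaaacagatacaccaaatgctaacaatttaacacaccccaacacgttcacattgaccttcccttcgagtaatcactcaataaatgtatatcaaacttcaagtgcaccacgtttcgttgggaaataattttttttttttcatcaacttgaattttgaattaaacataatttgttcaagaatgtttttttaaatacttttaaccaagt
RBCS2B: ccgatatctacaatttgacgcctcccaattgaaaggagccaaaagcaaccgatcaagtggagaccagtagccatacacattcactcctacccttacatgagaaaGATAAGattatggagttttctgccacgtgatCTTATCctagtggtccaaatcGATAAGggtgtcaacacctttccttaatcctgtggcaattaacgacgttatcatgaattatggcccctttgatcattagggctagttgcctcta
BT1 and AT5G38940 hold 1 match each and RBCS2B holds 3, and the RBCS2B window also holds CACGTG, left in lower case. Of the 12 low-energy genes with a window, BT1, DYL1 and SEN1 hold GATAAG. Over both strands, the evening-element letters AATATCT stood in 14.4% of the higher, 12.1% of the lower and 10.0% of all windows. AGATAT, whose reverse complement lies within AATATCT so that every AATATCT window also holds it, stood in 30.6%, 29.3% and 23.2%. TGGGCC stood in 4.55% of the higher, 7.51% of the lower and 13.7% of all windows, and GCCGCC in 2.27%, 0.484% and 1.87%. AACCGAC was found in 1.52%, 1.94% and 2.08%. TTGACC was found in 8.33%, 13.1% and 12.2% and TGTCTC in 8.59%, 8.23% and 10.9%. No test was made of these shares, windows of neighbouring genes can overlap, and a match is a run of letters and not a bound site.

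Light signalling and flavonoid genes were lower in flight. Of 42 genes of light signalling, 9 were lower (21.4%) and 0 higher, with a median log2 of -2.01, and of 21 flavonoid genes 8 were lower (38.1%) and 0 higher, with a median of -0.88. HY5, the bZIP factor that drives light-induced genes in shoots and roots, was at 75.3 FPKM on the ground and 52.2 in flight, a smaller drop than that of the B-box genes below. BBX31, a B-box protein and close relative of BBX30, fell from 19.5 to 3.87 FPKM, and STO (BBX24), a B-box regulator of light-dependent growth, from 222 to 55.2. PKS1, a phytochrome substrate that acts in root phototropism, fell from 20.09 to 10.03 FPKM. Photoreceptor genes of this list, such as PHYB, are not listed.

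MYB12, the activator of flavonol synthesis in roots, had the largest drop of its list, from 95.2 FPKM on the ground to 21.6 in flight. The pathway enzymes fell by smaller ratios at much higher levels. TT4, the chalcone synthase of the first step, was at 840.0 and 588 FPKM. TT5, the chalcone isomerase, was at 227 and 123 FPKM, and CHIL, its non-catalytic relative, at 444 and 271. F3H, which makes dihydroflavonols, was at 154 and 81.6 FPKM, FLS1, which makes flavonols, at 311 and 169, and UGT78D2, which glucosylates them, at 45.3 and 16.8. Thus every listed enzyme from chalcone to glycosylated flavonol was lower, with log2 values of -1.43 to -0.51. DFR and LDOX, which lead on to anthocyanins, are not listed.

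The windows before 3 of these genes are shown because they hold the G-box letters CACGTG, in capitals, with the same window, build and source as above. The window of ELIP1 is chr3:8085670-8085919 of the minus strand, BBX30 at chr4:8708591-8708840 of the plus strand and MYB12 at chr2:19476076-19476325 of the plus strand.
ELIP1: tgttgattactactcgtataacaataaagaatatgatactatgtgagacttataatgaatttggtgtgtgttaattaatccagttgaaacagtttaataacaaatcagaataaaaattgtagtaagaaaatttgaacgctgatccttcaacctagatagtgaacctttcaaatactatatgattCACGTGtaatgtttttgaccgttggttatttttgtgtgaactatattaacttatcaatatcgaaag
BBX30: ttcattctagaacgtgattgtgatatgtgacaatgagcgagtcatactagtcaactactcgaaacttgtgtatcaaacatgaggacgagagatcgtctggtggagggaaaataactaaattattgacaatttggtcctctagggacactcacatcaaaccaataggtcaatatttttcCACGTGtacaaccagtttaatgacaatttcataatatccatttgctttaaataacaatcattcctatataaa
MYB12: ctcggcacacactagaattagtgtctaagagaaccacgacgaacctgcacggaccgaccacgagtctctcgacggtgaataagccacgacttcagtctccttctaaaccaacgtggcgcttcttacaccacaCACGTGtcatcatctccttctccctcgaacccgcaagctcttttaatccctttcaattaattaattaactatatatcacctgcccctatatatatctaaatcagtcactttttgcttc
Each window holds 1 match, and that of ELIP1 also holds the letters CTTATC, left in lower case. CACGTG stood in 4 of 8 flavonoid windows (MYB12, F3H, CHIL and TT4) and in 2 of 8 light signalling windows (ELIP1 and BBX30). Over all lower genes the share was 7.02%, over the higher genes 6.57% and over all promoters 6.49%. The shorter core ACGTG, which every CACGTG contains, stood in 29.1% of lower, 28.0% of higher and 22.9% of all windows.

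Steps around flavonoids in phenylpropanoid metabolism were lower too. Of 29 genes from arogenate to the phenylpropanoids, 8 were lower and 0 higher, with log2 values of -1.17 to -0.57. Arogenate dehydratases make phenylalanine, and ADT6 fell from 32.4 to 19.2 FPKM and ADT5 from 82.9 to 50.04. 4CL1, which activates cinnamic acids and is also on the flavonoid list, fell from 95.5 to 57.6 FPKM. The largest drop was in MYB4, a repressor of phenylpropanoid genes, from 106 to 47.1 FPKM, and its relatives MYB32 (34.3 to 19.0) and MYB7 (66.6 to 44.0) fell as well. The list therefore holds repressors and enzymes that moved in the same direction. Among annotated families, counted after values were seen, 7 of 26 dirigent-like genes (26.9%) were lower and 0 higher, for example AT4G11190, from 197 to 89.7 FPKM, and AT2G39430, from 54.4 to 17.61. Dirigent proteins steer the coupling of phenolic radicals in the wall.

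**Figure D3:**
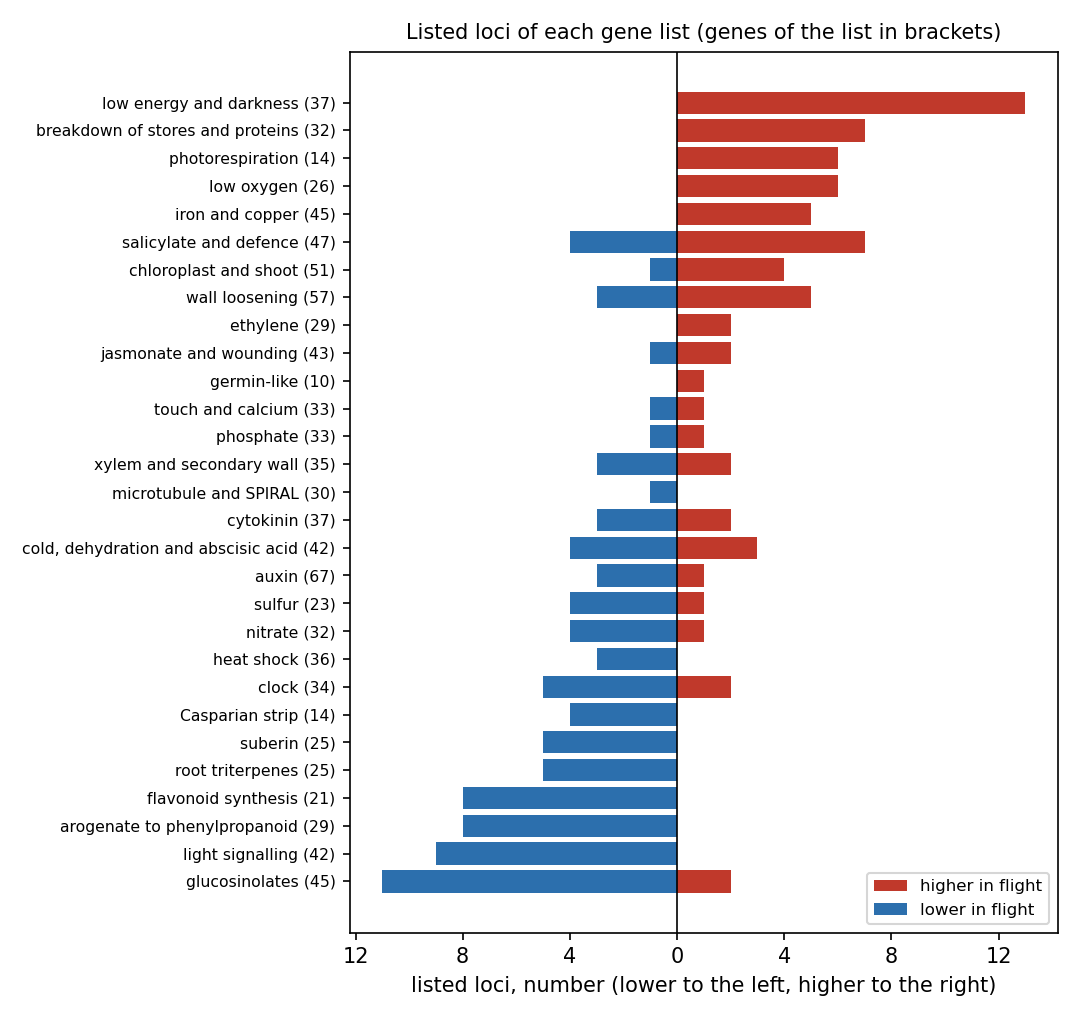
Number of listed loci of each gene list that were higher (red, to the right) or lower (blue, to the left) in flight, on a linear axis, with the genes of the list in brackets. The low energy and darkness list has the longest red bar, with 13 loci, and glucosinolates, light signalling and flavonoid synthesis the longest blue bars, with 11, 9 and 8. Lists with 0 listed loci (root hair, seed remains and cell cycle) are left out.

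Glucosinolates are sulfur-rich defence compounds of the cabbage family, and 11 loci of the 45 genes of their list were lower and 2 higher. SOT18 and SOT17, sulfotransferases of the last core step, fell from 126 to 64.7 FPKM and from 42.2 to 24.8. IGMT3, an indole glucosinolate methyltransferase, fell from 45.1 to 19.4 FPKM, and CYP79B2 and CYP79B3, which turn tryptophan into the indole precursor, from 45.4 to 29.1 and from 74.9 to 52.9. The 2 higher members were IGMT4, at 2.05 and 6.46 FPKM, and MYB51, an activator of indole glucosinolate genes, at 2.44 and 8.22. An activator and some of the enzymes of this branch thus moved in opposite directions. CYP79B2, CYP79B3 and MYB51 are also counted in the salicylate and defence list. A merged locus holding CYP81F4, CYP81F1 (CYP91A2) and the auxin-conjugating gene GH3.2 (BRU6) fell from 239 to 110.4 FPKM, and its genes cannot be told apart.

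Sulfur and nitrate genes were listed in both directions, more of them lower. Of 23 sulfur genes, 4 loci were lower and 1 higher. APR1 and APR2, which reduce activated sulfate, fell from 52.4 to 21.7 FPKM and from 72.0 to 34.5, and APS4, the sulfurylase before them, from 169.9 to 126. The sulfate transporter SULTR2;1 rose from 9.01 to 21.4 FPKM. Of 32 nitrate genes, 4 were lower and 1 higher. RFNR2 and RFNR1, the root ferredoxin reductases that feed electrons to nitrite reduction, fell from 289.5 to 159 FPKM and from 134 to 90.03, and the ammonium transporter AMT1;3 from 43.4 to 22.4. The nitrate transporter NRT2.1 moved the other way, from 3.196 to 6.66 FPKM. Of 49 iron and copper names, 45 were matched to a gene, and 5 loci of these were higher and 0 lower. The largest ratios were those of BHLH100, from 3.36 to 10.6 FPKM, and BHLH101, from 1.82 to 5.13. COPT2, a copper importer, rose from 366 to 525 FPKM, and the merged ferric reductase locus FRO4 with FRO5 from 18.06 to 28.3. PDR9 (ABCG37), an exporter of iron-chelating coumarins, rose from 18.24 to 25.4. IRONMAN1 (AT1G47400), a name on this list that was not matched, moved the other way, from 82.5 to 43.8 FPKM. The count of 0 lower therefore holds for the matched genes only. Of 33 phosphate genes 6.06% are listed. The transporter PHT1;4 fell from 42.9 to 20.9 FPKM, and WRKY75, a regulator of phosphate starvation, rose from 5.25 to 19.97.

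The endodermis is the inner sheath of the root that seals itself with Casparian strips and suberin. Of 14 Casparian strip genes 4 were lower, and of 25 suberin genes 5 were lower, with 0 higher in both. The peroxidase PRX72 (AT5G66390) fell from 93.7 FPKM on the ground to 31.2 in flight, and UCC1, a blue copper protein of the strip, from 69.4 to 32.5. ESB1, a dirigent-like protein needed to close it, fell from 25.9 to 14.0 FPKM. In the suberin list, ASFT (RWP1), which attaches ferulate, fell from 91.2 to 23.0 FPKM, CYP86B1, a fatty acid hydroxylase, from 8.07 to 2.096, and FAR5, a fatty acid reductase, from 24.2 to 13.4. The regulator MYB39 went from 5.30 to 1.52 FPKM, and a locus that merges MYB92 with a neighbour from 49.1 to 23.56. CYP86A1, FAR4, GPAT5, KCS1, FACT and MYB9 of the same list are lower in Col-0 flight at 4 days but are not listed here. The Casparian and suberin genes show that endodermis RNA was in both groups. Whether flight roots had fewer endodermal cells or less of these transcripts per cell was not measured.

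Root triterpenes of the thalianol and marneral type are made by clusters of neighbouring genes that are active mainly in roots. Of 25 genes on this list 5 were lower and 0 higher. In the marneral cluster, MRN1, the synthase, fell from 13.7 to 1.93 FPKM, CYP71A16, which oxidises marneral, from 24.5 to 7.92, and CYP705A12, the third gene of the cluster, from 3.78 to 1.13. These 3 genes are neighbours on chromosome 5, between positions 17023502 and 17058245 of the annotation. Away from it, PEN1, the arabidiol synthase, fell from 34.8 to 21.4 FPKM and CYP705A1, which cleaves arabidiol, from 8.33 to 4.34. Of 247 cytochrome P450 genes, 9 (3.64%) are listed as loci of their own, all lower. This is a share of annotated genes and cannot be set directly beside the 4.45% of tested loci. Of the annotated protein-coding genes of each chromosome, 2.88% (chromosome 3) to 3.43% (chromosome 2) were listed, slightly below the 3.64%. P450 genes in merged loci, such as CYP81F4, are left out of the 3.64%. With so few members listed, the count describes the direction of the 9 listed genes and not a change of the whole family.

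Low oxygen genes did not move as a full set. The list holds 34 names, which gave 26 genes, and of these 6 loci were higher and 0 lower. The higher loci are ARD3 (1.70 to 7.35 FPKM), the thioredoxin ACHT5 (21.9 to 60.3), the ethylene response factor EBP at 2 loci (34.4 to 85.5 at one), the cysteine oxidase PCO1 (3.92 to 9.65) and the haemoglobin HB1 (31.7 to 57.3). The fermentation genes ADH1 and PDC1 are not listed. PDC1 is listed as lower in Col-0 flight roots at 4 days.

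Photosynthesis genes in roots are usually low, and the list doubles as a check for shoot tissue in the dissected samples. Of 51 genes 4 were higher and 1 lower. RBCS2B was at 12.8 FPKM on the ground and 34.2 in flight, RBCS1B at 17.8 and 37.3, and RBCS3B at 39.1 and 74.8. These near-identical Rubisco genes are neighbours, so reads may have been shared among them. GAPB, of the Calvin cycle, was at 16.1 and 25.4 FPKM, whereas the light-harvesting gene LHCB2.1 was at 12.7 and 5.83. The major Rubisco small subunit RBCS1A is not listed here. In Col-0 flight roots at 4 days it is listed as lower, from 255 to 200 FPKM. In the separately scaled comparisons of age, RBCS1A in Sku6 at 4 days was at 262 FPKM on the ground and 118 in flight. Whether those values are of the same locus was not checked. The rises above are thus of the less abundant Rubisco genes only. Photorespiration genes, which recycle a side product of Rubisco, were higher at 6 of 14. GOX1, a glycolate oxidase, was at 6.92 and 13.0 FPKM, AGT, a glyoxylate aminotransferase, at 8.32 and 17.3, GDCH, a subunit of glycine decarboxylase, at 16.0 and 30.5, and CAT3, a catalase, at 60.8 and 93.4. Shoot contamination as a part of these values was not tested. Within the list the values did not share 1 direction.

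Defence genes were split. Of 47 salicylate and defence genes 7 were higher and 4 lower. WRKY70, a transcription factor of the salicylate response, rose from 5.90 to 28.1 FPKM, WRKY18 from 5.44 to 12.5, and the glutathione transferases GSTU4 and GSTU25 from 3.78 to 13.5 and from 26.9 to 54.9. PR4, a chitin-binding defence protein, rose from 314 to 599 FPKM. ALD1, which starts the synthesis of the immune signal pipecolic acid, fell from 7.64 to 3.92 FPKM. Of the 43 genes of the jasmonate list 6.98% are listed. ORA59, which joins jasmonate and ethylene signals, rose from 4.83 to 16.7 FPKM, and JAZ1, a repressor of jasmonate responses, fell from 44.2 to 30.02. ERF6 and ERF104 rose from 8.58 to 17.2 FPKM and from 16.7 to 33.4. Among annotated families, 4 of 5 listed WRKY genes (72 annotated) and 8 of 12 listed ERF loci (105 annotated) were higher. Lower were 8 of 11 listed MYB genes (122 annotated) and 6 of 8 listed NAC genes (118 annotated). The listed genes were 6.94% of WRKY, 10.5% of ERF, 9.02% of MYB and 6.78% of NAC genes. These counts therefore describe the direction of the listed members and not a change of whole families. The glutaredoxin GRXS13, chosen after its values were seen, went from 248 to 809 FPKM.

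The clock and stress lists were mixed. Of 34 clock genes 5 were lower and 2 higher. CDF3, a Dof factor under clock control, fell from 7.17 to 1.65 FPKM, LHY, a morning clock gene, from 10.3 to 5.90, and GI, an evening gene, from 16.9 to 7.79. RVE2 and RVE1 rose from 32.0 to 55.0 FPKM and from 2.61 to 5.40. Morning and evening genes were both among the lower ones, and the time of day of the harvests is not stated in the labels. Of 42 cold, dehydration and abscisic acid genes 4 were lower and 3 higher, with KIN2 (763 to 543 FPKM), COR413-PM1 (911 to 597) and the bZIP factor ABF3 (22.6 to 12.3) lower and the lipid transfer proteins LTP4 (1.46 to 10.6) and LTP3 (228 to 357) higher. Of 36 heat shock genes 3 were lower, among them HSP70 from 21.8 to 12.5 FPKM and the regulator HSFA6B from 5.70 to 2.42.

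Growth and wall genes were listed in both directions. The listed share was 14.0% of wall loosening, 14.3% of xylem and 13.5% of cytokinin genes, against 4.45% of all tested loci. The microtubule and SPIRAL list, the one nearest to the mutation, had 1 listed gene of 30. SP1L5, a SPIRAL1-like relative of SPR1, fell from 82.9 FPKM on the ground to 28.6 in flight, a log2 of -1.54. In wild-type Col-0 roots of the same age SP1L5 went from 76.5 to 27.6 FPKM, so it is listed as lower in both genotypes. No tubulin is listed. Of 57 wall loosening genes 5 were higher and 3 lower. XTH26 rose from 5.96 to 23.9 FPKM, while XTH21 fell from 94.2 to 38.8 and XTH32 from 53.6 to 23.56, all of them enzymes that cut and rejoin xyloglucan. Of 35 xylem genes 3 were lower, such as LAC4 (IRX12), a lignin laccase, from 9.84 to 5.96 FPKM, and 2 higher, PRX52 at 0.776 and 3.86 and FRA8 at 14.4 and 24.2. Of 67 auxin genes 3 loci were lower and 1 higher. LBD29, which acts in lateral root initiation, fell from 17.9 to 7.83 FPKM and IAA28, an auxin response repressor, from 269.8 to 169.8. Of 37 cytokinin genes 3 were lower and 2 higher, with the response regulator ARR16 (RR16) from 9.68 to 3.203 FPKM and AHP1, a phosphotransfer protein, from 266 to 523. Of 33 touch and calcium genes, TCH3, a calmodulin-like protein, rose from 10.5 to 31.8 FPKM and ANNAT7, an annexin, fell from 37.8 to 5.32. None of the 32 root hair genes and none of the 39 cell cycle genes is listed, that is 0 of each.

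Of the listed loci of a single gene 3 are microRNA precursors, and 2 merged loci hold MIR157a and MIR848 among other genes. The mature sequences of the 3 are shown because a plant microRNA finds its targets by pairing along nearly its whole length. The libraries were primed on poly(A), so the values are of precursor transcripts and not of the mature RNA. Sequences are from the RefSeq annotation of TAIR10.1, 5′ to 3′, with the seed (bases 2 to 8) in capitals.
miR163: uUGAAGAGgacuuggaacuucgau
miR160b: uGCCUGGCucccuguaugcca
miR824-5p: uAGACCAUuugugagaaggga
miR824-3p: cCUUCUCAucgauggucuaga
No seed is shared among them. MIR163, whose product acts on methyltransferase genes, fell from 333 to 210.1 FPKM. MIR160b, whose product targets auxin response factors, rose from 2.46 to 8.14 FPKM, and MIR824, whose product targets AGL16, fell from 12.9 to 6.47. MIR160b went the other way in Sku6 flight roots at 8 days, from 20.9 to 3.13 FPKM.

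Listed genes were spread evenly over the genome. Between 2.88% (chromosome 3) and 3.43% (chromosome 2) of the protein-coding genes of each chromosome were listed. Of 59 pairs of neighbouring genes that were both listed, 45 moved in the same direction, 15 of them higher and 30 lower. Counted by gene, 432 of all listed protein-coding genes were higher and 437 lower. Neighbours can share sequence or reads of unstranded libraries, which was not tested. There were 7 runs of 3 or more listed neighbours. Those in 1 direction were the Rubisco genes RBCS3B, RBCS2B and RBCS1B and the marneral genes above, and 3 more runs in which all genes were lower. One of these runs from GAE1, a pectin precursor epimerase (74.5 to 51.4 FPKM), over the glycine-rich proteins AT4G30450 and AT4G30460 (135 to 73.6) to AT4G30470. The next holds RALFL24, a RALF-type peptide (168 to 123 FPKM), SAHH2, of the methyl cycle (175 to 106), and GAE6 (138 to 102). The last joins a merged locus of the adenosylmethionine decarboxylase AT5G15950 (23.7 to 2.78 FPKM), which makes polyamine precursors, to KIN1 (149 to 95.3) and KIN2. In the remaining pair of runs the directions differed. In one the gibberellin-degrading ATGA2OX1 fell from 4.39 to 1.06 FPKM beside 2 higher SOUL haem-binding genes, AT1G78450 (2.121 to 6.96) and AT1G78460 (33.2 to 81.9). In the other the peroxidases AT2G38380 (625 to 317) and AT2G38390 (138 to 87.9) fell beside the higher AGT3 (10.6 to 16.4).

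The wild type gave the nearest comparison that shares no sample with these groups. Of the 869 loci, 438 (50.4%) are also listed between Col-0 flight and ground roots at 4 days, where 1414 loci (7.21% of those tested, 3.1% higher and 4.11% lower) are listed and these 438 are 31.0%. A total of 139 were higher in both genotypes, 291 were lower in both and 8 were opposite. The change in Sku6 was the larger one at 274 of the 438 loci (62.6%), with a median absolute log2 of 0.92 in Sku6 and 0.84 in Col-0. Whether the genotypes differed in their response was not tested, because the tables hold no values per sample. AT5G38940 shows how a ratio can differ through the ground value, since it was at 25.4 FPKM on the ground and 46.8 in flight in Col-0. UGT84A2 was at 66.2 and 16.6 FPKM, and MRN1 at 5.67 and 2.16. RTFL15, a DEVIL-type small peptide gene, was the opposite locus with the largest change above 2 FPKM. It went from 85.9 to 45.5 FPKM in Sku6 and from 54.0 to 94.6 in Col-0. GAPB rose in Sku6 and fell in Col-0 from 17.57 to 11.9 FPKM, and the peroxidase Prx37 went from 49.6 to 74.3 FPKM in Sku6 and from 108 to 83.9 in Col-0. TBL36, of a family of wall acetyltransferases, went from 100.1 to 142 and from 172 to 135 FPKM. AT5G46040 was under 3 FPKM in all 4 groups, at 0.466 and 1.78 in Sku6 and 2.15 and 0.656 in Col-0. The peroxidase AT5G64100 was at 154 and 209 FPKM in Sku6 and 185 and 135 in Col-0, and the order of the genotypes changed from ground to flight at RTFL15, GAPB, TBL36 and AT5G64100 but not at Prx37.

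**Figure D4:**
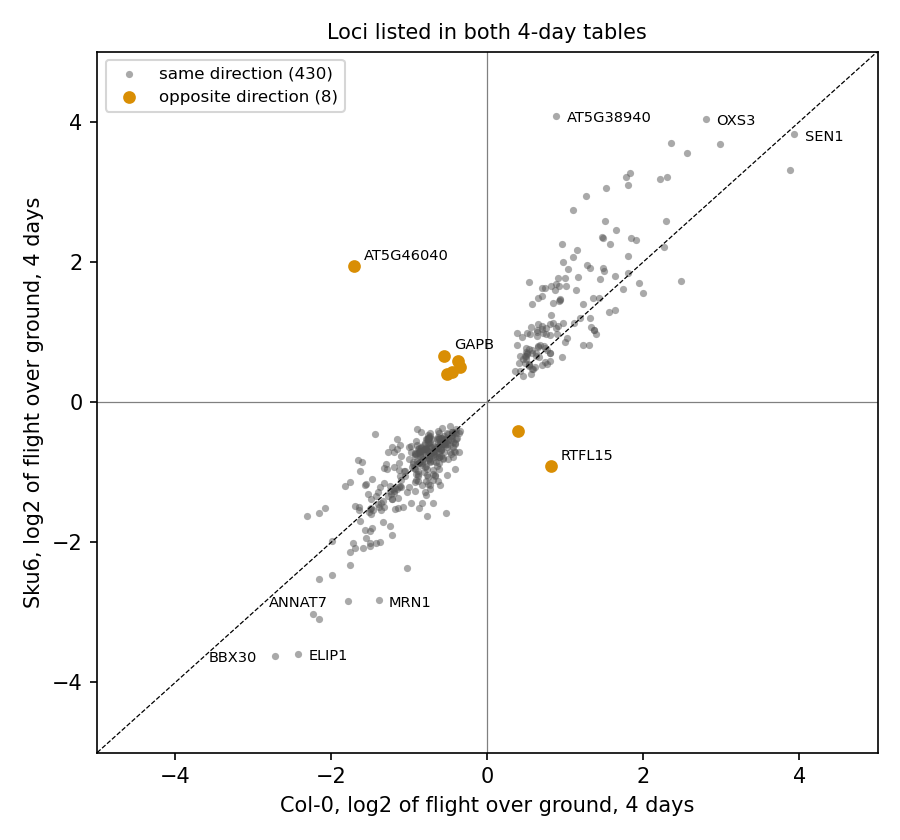
Log2 of flight over ground in Col-0 (x axis) and Sku6 (y axis) roots at 4 days for the 438 loci listed in both tables, each point 1 locus. Grey points (430) lie in the same direction in both genotypes, orange points (8) in opposite directions, and the dashed line marks equal ratios. Most of the strongly higher loci lie above the dashed line, among them AT5G38940 and OXS3, and SEN1 lies close to it.

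At 8 days the same genotype gave fewer listed loci. In Sku6 flight roots at 8 days 496 loci (2.51%, of which 1.08% higher and 1.43% lower) are listed, and 250 of them (50.4%, or 28.8% of the loci at 4 days) are shared, 109 higher in both, 136 lower in both and 5 opposite. The change at 4 days was the larger one at 208 of 250 (83.2%). OXS3 was at 5.09 FPKM on the ground and 21.0 in flight at 8 days, BT1 at 11.8 and 37.2, and MYB12 at 71.9 and 22.4. Those 3 kept their direction with a smaller ratio, while RVE7 had about the same one at 7.27 and 1.23 FPKM. BCB, a blue copper-binding protein, was opposite, with 1.09 to 5.96 FPKM at 4 days and 7.28 to 2.87 at 8 days, as was the methyltransferase-like AT5G38020, with 10.1 to 23.9 and 81.1 to 55.2.

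In Col-0 roots at 8 days 812 loci (4.05%, of which 1.26% higher and 2.8% lower) are listed, and 219 (27.0%, or 25.2% of the 869) are shared. Here 36 were higher in both, 150 lower in both and 33 opposite. Of the opposite loci 25 were higher in Sku6 at 4 days and lower in Col-0 at 8 days. HB1 was at 144 and 101 FPKM and PCO1 at 25.8 and 16.2 in Col-0 at 8 days. MIOX2, an inositol oxygenase, rose from 23.59 to 61.1 FPKM in Sku6 at 4 days and went from 31.7 to 22.9 in Col-0 at 8 days. MRN1 was opposite in the other sense, with 1.63 FPKM on the ground and 2.91 in flight. COPT2 was at 348 and 228 FPKM and the FRO4 and FRO5 locus at 18.24 and 10.7. Genotype and age both differ in this contrast. In Sku6 at 8 days HB1 (83.8 to 150.2 FPKM), PCO1 (15.8 to 23.2) and COPT2 (206 to 270.0) were higher in flight, as at 4 days, and MIOX2 and the FRO4 and FRO5 locus are not listed.

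A total of 103 loci were listed in all 4 flight tables in 1 direction, 18 higher and 85 lower. AT1G49570 was at 0.658 and 9.65 FPKM in Col-0 at 4 days, 1.01 and 8.70 in Sku6 at 8 days and 1.02 and 4.61 in Col-0 at 8 days. BBX31 fell in each, to between 3.70 and 4.71 FPKM, from between 12.5 and 19.5. At the other end, 327 loci are listed in no other flight table, 215 of them higher and 112 lower. Of those named by the rule, LTP4, ARD3, WRKY75, SWEET11 and ORG1 are among them, and HB52, a homeodomain protein (18.9 to 82.6 FPKM), RAV1, a growth repressor (4.52 to 27.1), and CIPK13, a calcium sensor kinase (2.19 to 14.6), were chosen after their values were seen. Absence from another table does not show that a locus was unchanged there.

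**Figure D5:**
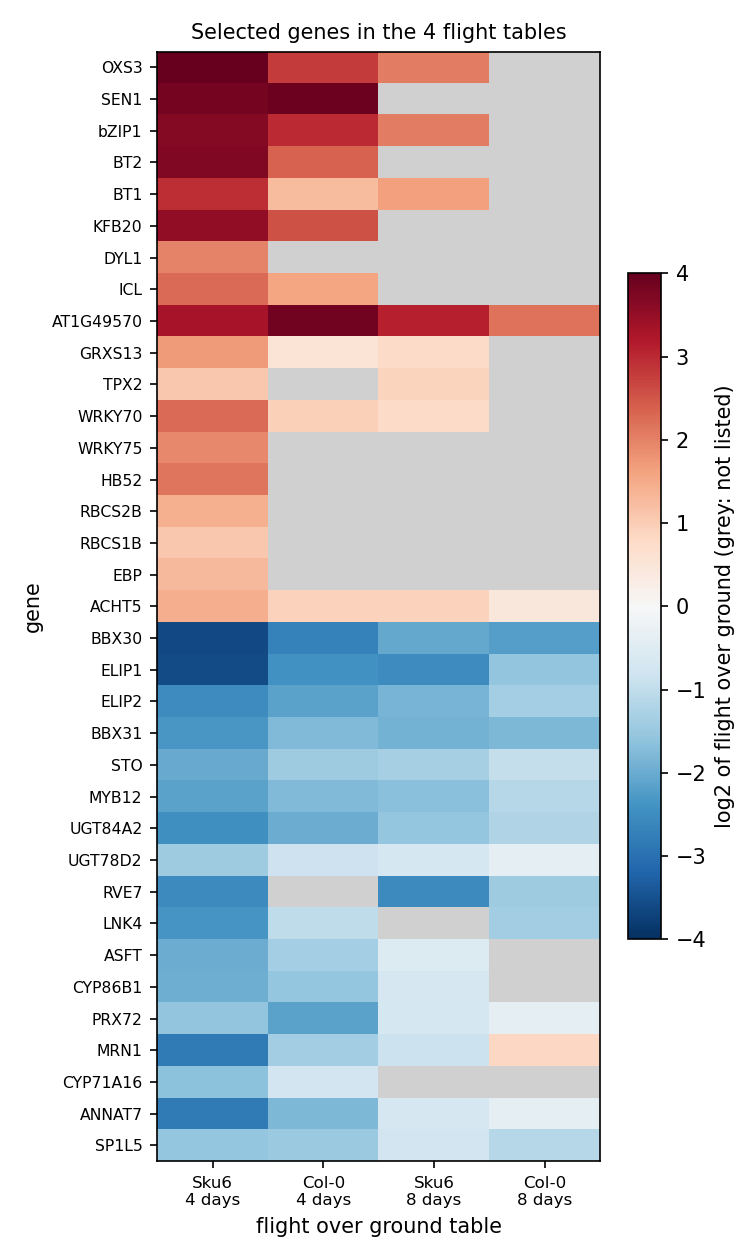
Log2 of flight over ground (colour scale from -4, blue, to 4, red) for selected genes (rows) in the 4 flight over ground tables (columns), with grey where a gene is not listed. The chosen light and flavonoid genes from BBX30 to UGT78D2 are blue in every column, whereas most low-energy genes are red at 4 days and grey in Col-0 at 8 days. The flavonoid genes TT4, TT5, FLS1 and CHIL, which are not drawn, are not listed at 8 days in either genotype. MRN1 is blue in 3 columns and red in Col-0 at 8 days.

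The genotype tables share the Sku6 samples, so only their values are set beside the flight change. In the table of Sku6 against Col-0 in flight at 4 days, BT1 was at 29.5 FPKM in Col-0 and 72.4 in Sku6, WRKY70 at 13.1 and 28.3, and WRKY75 at 7.05 and 20.1004. GRXS13 was at 327 and 815 FPKM. These 4 genes are not listed between the genotypes on the ground. On the ground, ORG1 was at 17.9 FPKM in Col-0 and 57.3 in Sku6, CYP71A16 at 15.5 and 24.6, and PRX72 at 157 and 94.0. The genotype table in flight does not list ORG1 and CYP71A16.

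Age in wild-type roots on the ground is another readout with no shared sample. Between 4 and 8 days 2235 loci (11.2%, of which 5.69% higher and 5.54% lower) are listed in ground Col-0 roots, and of these 334 (14.9%, or 38.4% of the 869) are shared. A total of 68 were higher in flight and with age and 152 lower in both, while 61 were higher in flight and lower with age and 53 the reverse. RBCS2B fell with age from 11.4 to 0.636 FPKM and rose in flight. CYP71A16 went from 16.0 to 9.71 FPKM and SOT18 from 194 to 122, both lower in flight too. SP1L5 rose with age, from 78.2 to 203 FPKM, against its drop in flight. The flight change in young Sku6 roots thus ran with age at 220 loci and against it at 114.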

How the data were processed

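Trimmomatic 0.36, FastQC 0.11.2, the aligner STAR 2.5.1b, Picard, Cufflinks and Cuffdiff are named in the submitters' processing notes, with the TAIR10 build; the sources used here do not give their settings. Per the labels' protocols, cDNA was amplified for 8 cycles with SMART-Seq v4 and tagmented with Nextera, which does not mark strand, so antisense partners cannot be told apart. Each deposited table compares a pair of groups. Per the file headers it holds 1 FPKM value per group, a log2 fold change, a p-value and a q-value, and every locus in it has a q-value of 0.05 or less. Values per sample, and so spread and depth, were not in hand, and 0 per-sample columns were left out.

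Log2 of flight over ground was computed with pandas 2.3.3 from the FPKM values with nothing added, and differed from the deposited log2 by rounding only. The number tested was worked back from the deposited p-value and q-value by a routine tested on simulated data. Tables are scaled separately. Genes, positions and sequences came from RefSeq's TAIR10.1, in which 896 of 900 gene IDs were found, with the deposited position overlapping at all 828 single-gene loci looked up. A further 35 loci merge several genes and 5 hold none. Named genes are the 12 highest and 12 lowest ratios, the 10 most abundant loci, in each list with 2 or more listed genes the 6 largest changes, up to 6 opposite loci per table and neighbouring runs. Members and lists were chosen with earlier results of these data known.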

Additional observations from a re-analysis of the deposited data

How the results depend on the processing

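No paired analysis was possible because each deposited table holds 1 value per group and none per sample; for the same reason leaving out a replicate in turn was not run. At a q-value of at most 0.01, 532 loci were listed, 266 higher and 266 lower, with medians of 1.13 and -0.94 on the log2 scale. At a change of at least 2-fold there were 367, 215 higher and 152 lower, with medians of 1.52 and -1.39. These drops follow from the stricter thresholds. With at least 2-fold in both tables, 131 loci were shared with Col-0 at 4 days (1 opposite), 66 with Sku6 at 8 days (2 opposite), 32 with Col-0 at 8 days (0 opposite) and 53 with age in ground Col-0 (19 opposite). Leaving out merged loci kept all of these counts within 1.5 times, as did a minimum of 1 FPKM in both groups for the total, the higher and the lower loci, the only counts it was run on besides the lists. Balances of higher and lower loci changed with the threshold. For all loci the balance went from more lower to more higher at 2-fold. At 2-fold, xylem went from 2 higher and 3 lower to 1 and 0, and cold and abscisic acid from 3 and 4 to 1 and 0. At 0.01, cytokinin went from 2 and 3 to 2 and 1. Adding the same amount to both groups, or taking the deposited log2, cannot change which group is higher. The signs of the log2 values were therefore fixed in advance and were no check. Adding 0.1 or 1 FPKM left the count of loci at 2-fold within 1.5 times, and adding 5 FPKM took it to 189. Of 64 list counts, 2 moved at 1 FPKM (higher xylem and jasmonate genes, each from 2 to 1), 12 at the q-value of 0.01 and 24 at 2-fold, where flavonoid genes went from 8 lower to 2. Depth is unknown, so no precision can be given for levels under 2 FPKM.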
